A study of Schizosaccharomyces pombe with 6 samples.

Results

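The genes described here are the protein-coding genes of fission yeast whose description names tRNA and does not name rRNA. There were 105 of them among 5145 protein-coding genes and 7268 gene models in all. Of these, 35 encode tRNA ligases (17 cytosolic, 14 mitochondrial and 4 listed for both compartments), and 70 encode enzymes that modify, trim, splice or otherwise handle tRNA. PolyA RNA was sequenced from wild-type Schizosaccharomyces pombe (972-) grown in YES medium with 3% glucose at 32 °C, in which cells received 100 nM rapalink-1, 100 nM rapamycin or neither for 5 h. Each condition had 2 libraries, which gave 6 libraries with 16527483 to 26321118 reads in genes. Rapamycin binds the small protein FKBP12, and this pair blocks the growth-promoting kinase complex TORC1. Rapalink-1 joins a rapamycin core to an inhibitor of the kinase's ATP site by a linker. Both were given at the same dose and time, so that they could also be compared with each other. The strain is of the minus mating type, and mam2, the pheromone receptor of minus cells, averaged 30.5 FPKM over the 6 libraries. It had 24.3 FPKM in both untreated libraries and 41.2 and 40.4 FPKM with rapalink-1. Of the minus-cell pheromone genes, mfm2 had 52.2 and 55.1 FPKM in untreated cells and 327 and 300 FPKM with rapalink-1. With rapamycin mfm2 had 78.1 and 69.5 FPKM. Another, mfm3, with its model 100% covered, was listed at 0. The third, mfm1, had 2.15 and 2.52 FPKM in untreated cells, below the plus-cell gene map2 at 3.02 and 3.24 FPKM, and 44.5 and 34.0 FPKM with rapalink-1. The receptor of plus cells, map3, averaged 2.85 FPKM, with 59.7% of its gene model covered by other models.

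A tRNA ligase (aminoacyl-tRNA synthetase) joins an amino acid to its tRNA with the energy of ATP, and each amino acid has an enzyme of its own. Mitochondria translate their own few mRNAs and need charged tRNAs too, which come from separate mitochondrial enzymes or from a gene whose product serves both compartments. As it matures, tRNA is trimmed at both ends, spliced where its gene holds an intron, and modified at many bases by methylases, pseudouridine synthases, deaminases and thiolation enzymes. Growing cells spend much of their resources on translation, and TORC1 is a known promoter of that expenditure.

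The values are FPKM, fragments per kilobase of model length after scaling for library size, so they allow a comparison between genes as well as between libraries. They are relative to the other RNAs in a library, and fewer cells or less mRNA per cell cannot be told apart from them. Differences were tested with limma on log2(FPKM + 1) over the 4847 gene models that averaged 1 FPKM or more, and a gene was called higher or lower at an adjusted p of at most 0.05. Fold changes are on the log2(FPKM + 1) scale, with their standard error (SE). Of the 105 genes, 85 passed the filter and 20 did not.

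The 20 genes that were not tested had gene models that lie largely on top of other models. Between 81.9% and 100% of the length of each was covered by another gene model, in every case mainly by one on the other strand, and the highest count in any library was 29 reads. Across the genome, 374 of 417 protein-coding models covered completely by others were listed at 0 reads in all libraries, against 13 of 1804 models without any overlap. Ligases were among them. The models of qrs1 (cytosolic glutamine ligase) and hrs1 (histidine ligase of both compartments) were 100% covered, by a non-coding antisense RNA and by dcd1, and both were listed at 0 in all 6 libraries. The mitochondrial lysine ligase SPCC18.08 and the mitochondrial asparagine ligase slm5 averaged 0.267 and 0.107 FPKM, with 98.6% and 92.1% of their models covered. The other 16 were modification and processing enzymes, such as the isopentenyltransferase tit1 and the splicing endonuclease subunit sen15, both listed at 0. These values describe the counting of overlapped models and say nothing of whether the genes were expressed. Levels between genes are therefore compared below only for the 56 genes with less than 10% of their model covered.

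**Figure D1:**
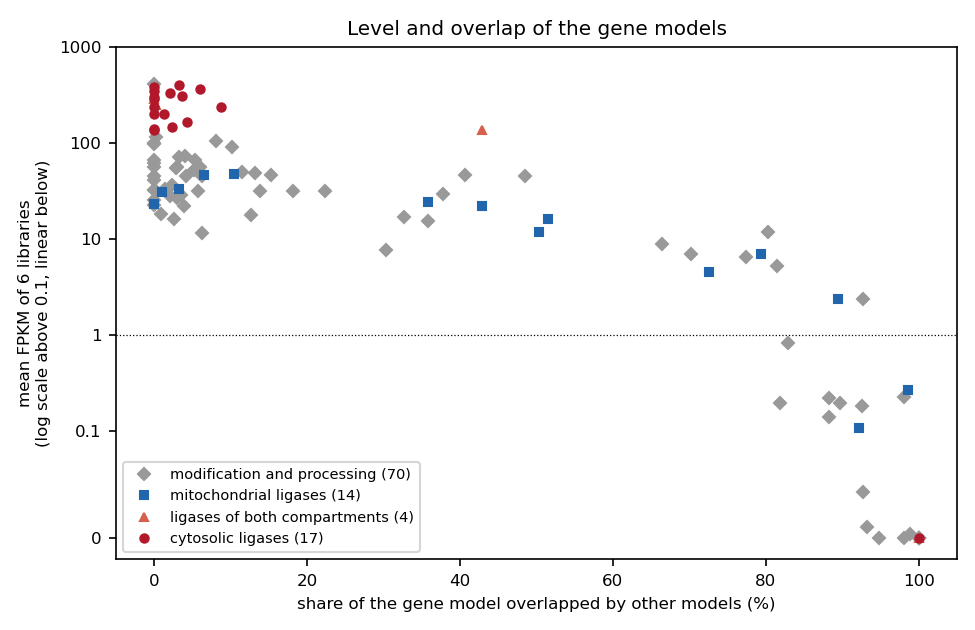
Mean FPKM over 6 libraries (vertical axis, logarithmic above 0.1 and linear below) against the share of the gene model covered by other models (horizontal axis, %) for all 105 genes, with the dotted line at 1 FPKM. Each point is a gene, and the 20 genes below the line all have at least 81.9% of their model covered.

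Cytosolic ligases were abundant transcripts. Among genes with little overlap, the 16 cytosolic ligases averaged between 136 and 399 FPKM over the 6 libraries, with a median of 262 FPKM. The highest were krs1 (lysine, 399 FPKM), nrs1 (asparagine, 383 FPKM) and prs1 (proline, 364 FPKM), and the lowest was rar1 (methionine, 136 FPKM). The 4 mitochondrial ligases with little overlap lay between 23.0 and 46.3 FPKM, below all 16 cytosolic ones, and each was 4.41 to 10.4 times lower than the cytosolic ligase of the same amino acid. The 34 modification and processing enzymes with little overlap had a median of 44.9 FPKM. Their highest member was asc1 at 414 FPKM, whose product is listed as a cofactor of the cytosolic methionine and glutamate ligases and which stood above both (rar1 at 136 and gus1 at 346 FPKM), while rib2 had the lowest level at 11.5 FPKM. The alpha and beta subunits of phenylalanine ligase, frs2 and frs1, averaged 288 and 203 FPKM. The frs2 to frs1 ratio was 1.43 ± 0.04 with rapalink-1, 1.40 ± 0.04 with rapamycin and 1.43 ± 0.01 in untreated cells (SD, n = 2 each), and the libraries of the 3 conditions overlapped.

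With rapalink-1, every cytosolic ligase that could be tested was lower than in untreated cells. All 16 passed the threshold, with log2 fold changes between -0.49 and -0.17 and a median of -0.26. Of all 4847 tested genes, 23.1% were called lower in this comparison, and the median over all of them was -0.01. Of the 1098 tested genes with a mean of at least 100 FPKM 36.2% were called lower. The sizes were modest, and 7 of the 16 fell by 1.2-fold or more, a size that 11.7% of all tested genes passed in this direction. Of the 3 tested ligases that serve both compartments, mrs1 and grs1 also fell and ala1 did not pass the threshold. Together 18 of 19 ligases that work in the cytosol were called lower and 0 higher, where 23.1% of all tested genes were lower and 24.3% higher.

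The arginine ligase mrs1 (chromosome II, 2612912 to 2615280, minus strand) had the largest decrease of all 31 tested ligases. It stood at 201 and 207 FPKM in the rapalink-1 libraries and 264 and 258 FPKM in the rapamycin libraries, against 294 and 286 FPKM in the untreated libraries. The 3 conditions did not overlap, and rapamycin lay between the other 2. The log2 fold change with rapalink-1 was -0.50 ± 0.04 (SE, n = 2 libraries each; adjusted p = 1.55e-05 from limma), which is 1.42-fold lower. The valine ligase vrs1 (chromosome II, 1098188 to 1101503, minus strand) stood at 158 and 174 FPKM with rapalink-1 and 208 and 203 FPKM with rapamycin, against 235 and 231 FPKM in untreated cells. Its order was the same, and its log2 fold change with rapalink-1 was -0.49 ± 0.05 (adjusted p = 9.25e-05).

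Next came prs1 (proline, -0.37 ± 0.04), krs1 (lysine, -0.36 ± 0.05), drs1 (aspartate, -0.35 ± 0.04), lrs1 (leucine, -0.35 ± 0.06), irs1 (isoleucine, -0.32 ± 0.05) and the glycine ligase grs1 (-0.32 ± 0.04), all log2 fold changes with SE at adjusted p of at most 0.00142. The aspartate ligase drs1 had 192 and 201 FPKM with rapalink-1 and 267 and 260 FPKM with rapamycin, against 253 and 248 FPKM in untreated cells. Here the rapamycin libraries were the highest of the 6. The smallest decrease was that of the threonine ligase trs1, with 278 and 279 FPKM with rapalink-1 and 314 and 310 FPKM with rapamycin, against 311 and 317 FPKM in untreated cells (log2 fold change -0.17 ± 0.04, adjusted p = 0.00424). Even there the rapalink-1 libraries lay below all 4 others. The alanine ligase ala1, whose model is 42.9% covered by other models, had 131 and 136 FPKM with rapalink-1, 133 and 130 FPKM with rapamycin and 141 and 146 FPKM in untreated cells, and its difference from untreated cells did not pass the threshold with rapalink-1 (adjusted p = 0.0568) or with rapamycin (adjusted p = 0.0611).

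Ligases fall into 2 catalytic classes with unrelated folds, and the classes were set side by side without a test of their difference. With rapalink-1, all 9 tested class I enzymes of the cytosol were lower (median -0.27 on the log2 scale), and so were 9 of 10 class II enzymes (median -0.20). Of all tested genes 23.1% were called lower, and 36.2% of those with a mean of at least 100 FPKM. Class II counts the phenylalanine subunits frs1 and frs2 separately. With rapamycin, 5 of 9 class I enzymes and 1 of 10 class II enzymes were called lower, where 8% of all tested genes were, and of these 6 calls only that of gus1 (class I) was kept when each untreated or rapamycin library was left out.

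**Figure D2:**
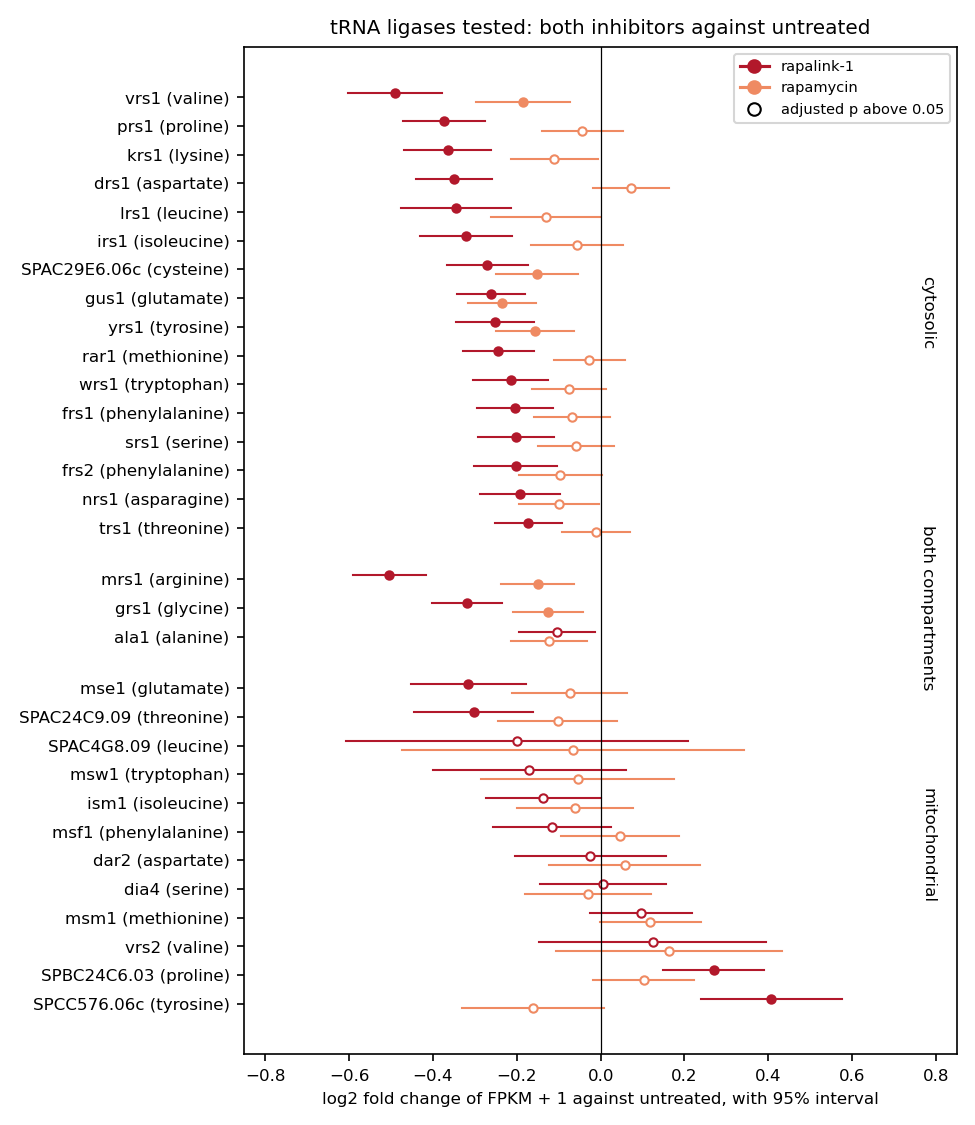
Log2 fold change of FPKM + 1 against untreated cells (horizontal axis) with its 95% interval for the 31 tested tRNA ligases, with rapalink-1 in dark red above rapamycin in orange for each gene, and filled points for an adjusted p of at most 0.05. All 16 cytosolic ligases have filled rapalink-1 points left of 0, and 2 mitochondrial ligases have filled rapalink-1 points right of 0.

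Rapamycin gave fewer calls. It lowered 4 of the 16 cytosolic ligases and 2 of the 3 tested ligases of both compartments, where 8% of all tested genes were called lower. No ligase was called higher, where 10.2% of all tested genes were, and no mitochondrial ligase was called in either direction. The glutamate ligase gus1 had 330 and 327 FPKM with rapamycin against 388 and 386 FPKM in untreated cells, a log2 fold change of -0.23 ± 0.04 (adjusted p = 0.00503). With rapalink-1 it had 318.8 and 326.5 FPKM, slightly below the rapamycin libraries at 330.2 and 327.3 FPKM. The other 5 were vrs1 (-0.18 ± 0.05), yrs1 (tyrosine, -0.16 ± 0.04), the cysteine ligase SPAC29E6.06c (-0.15 ± 0.04), mrs1 (-0.15 ± 0.04) and grs1 (-0.13 ± 0.04), with adjusted p between 0.0287 and 0.0467. These 5 calls were lost when either untreated library or the second rapamycin library was left out, and only that of gus1 was kept under every alternative (largest adjusted p = 0.0351). Both inhibitors were compared with the same 2 untreated libraries, so these values and those for rapalink-1 are not independent.

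The inhibitors were also compared directly. Of the 16 cytosolic ligases, 11 were lower under rapalink-1 than under rapamycin and 0 were higher, at a median of -0.15 on the log2 scale. In this comparison 17.6% of all tested genes were called lower and 19.6% higher. The largest difference was that of drs1 (-0.42 ± 0.04, adjusted p = 9.24e-05), followed by mrs1 (-0.35 ± 0.04, adjusted p = 0.000184), prs1 (-0.33 ± 0.04, adjusted p = 0.000514) and vrs1 (-0.31 ± 0.05, adjusted p = 0.00163). For gus1 the difference was -0.03 ± 0.04 (adjusted p = 0.596), which quantile normalization turned into a call at -0.18.

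The mitochondrial ligases did not move together. Of the 12 that were tested, 2 rose and 2 fell with rapalink-1, where 24.3% of all tested genes were called higher and 23.1% lower. The tyrosine ligase SPCC576.06c had 27.2 and 27.6 FPKM with rapalink-1 and 18.5 and 17.8 FPKM with rapamycin, against 19.0 and 21.9 FPKM in untreated cells. Both rapalink-1 libraries stood above the 4 others, with a log2 fold change of 0.41 ± 0.07 against untreated cells (adjusted p = 0.00231) and 0.57 ± 0.07 against rapamycin (adjusted p = 0.000535). Other models cover 42.8% of its own, mainly ret3 on the other strand, which rose by 0.13 on the log2 scale (adjusted p = 0.0191). The strand setting of the counting is not given in the sources used here, and the part of ret3 in the value was not tested. The proline ligase SPBC24C6.03, with 6.52% of its model covered, had 51.8 and 50.5 FPKM with rapalink-1 and 47.2 and 43.7 FPKM with rapamycin, against 41.5 and 43.0 FPKM in untreated cells (0.27 ± 0.05 against untreated cells, adjusted p = 0.00336). Its rapalink-1 libraries were the 2 highest. The glutamate ligase mse1 and the threonine ligase SPAC24C9.09 fell, by 0.32 and 0.30 on the log2 scale (adjusted p = 0.00294 and 0.00433). Other models cover 35.8% of SPAC24C9.09.

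For 12 amino acids a mitochondrial and a cytosolic ligase were both tested, which gave 13 pairs because phenylalanine ligase of the cytosol has 2 subunits. All 13 cytosolic partners were lower with rapalink-1, while the median over all 4847 tested genes was -0.01. A value above theirs is therefore not particular to mitochondrial ligases. The log2 fold change of the mitochondrial partner lay above that of the cytosolic one in 11 of the 13 pairs, with a median difference of 0.18 and a range of -0.13 to 0.66. The difference was widest for tyrosine (0.66), proline (0.64) and valine (0.61), and the glutamate and threonine pairs went the other way, by -0.05 and -0.13. The valine value rests on vrs2 at 4.56 FPKM with 72.6% of its model covered. Only 4 pairs have a mitochondrial model less than 10% covered. Their differences were 0.64 (proline), 0.34 (methionine), 0.18 (isoleucine) and -0.05 (glutamate). The lowest mitochondrial value, that of the leucine ligase SPAC4G8.09, was 2.38 FPKM with 89.4% of its model covered. The 1 added to FPKM before the log draws the fold changes of such low genes toward 0. With rapamycin the median difference was 0.07 and 9 of 13 were above 0. These differences between genes were not tested.

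**Figure D3:**
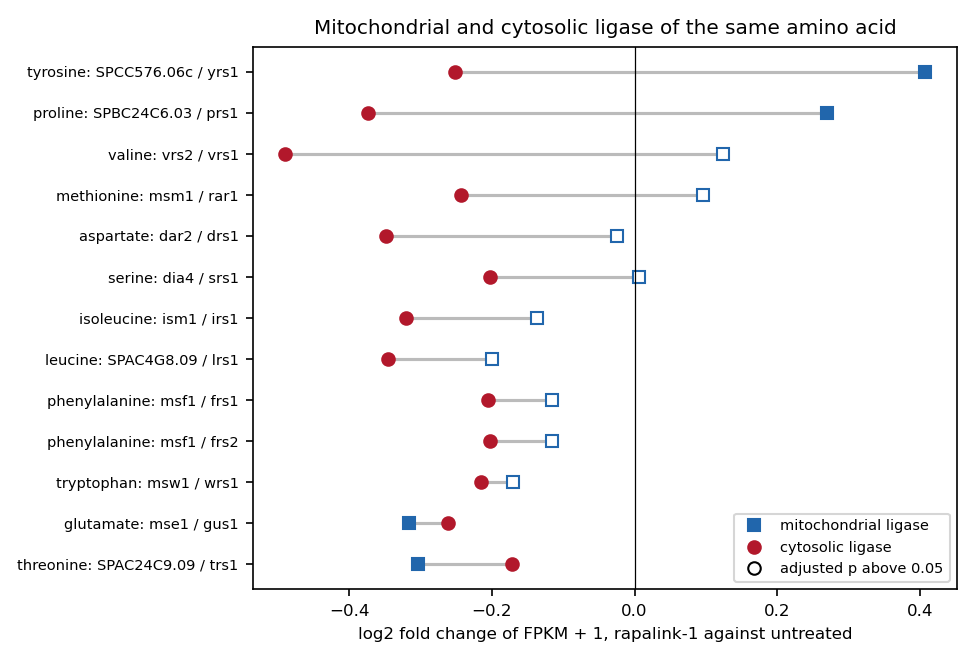
Log2 fold change of FPKM + 1 with rapalink-1 against untreated cells (horizontal axis) for the mitochondrial ligase (blue square) and the cytosolic ligase (red circle) of the same amino acid, 13 pairs, with open symbols for an adjusted p above 0.05. All red circles lie left of 0, and the squares reach from -0.32 to 0.41.

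Among the 54 tested modification and processing enzymes, 25 were lower with rapalink-1 and 3 were higher, with a median log2 fold change of -0.14, where 23.1% of all tested genes were called lower and 24.3% higher. Of these, 19 fell by 1.2-fold or more, as did 11.7% of all tested genes. Over all 85 tested members the counts were 45 lower and 5 higher. With rapamycin 4 of the 54 were lower and 4 higher, where 8% of all tested genes were called lower and 10.2% higher, and the median was -0.03. Compared with rapamycin, rapalink-1 left 20 of them lower and 2 higher, where 17.6% of all tested genes were called lower and 19.6% higher. The 8 tested enzymes listed as mitochondrial had a median of 0.02 with rapalink-1, with 1 lower and 1 higher, and the other 46 a median of -0.21, with 24 lower and 2 higher.

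Methylation enzymes were the largest group, and 11 of the 18 that were tested fell with rapalink-1 (median log2 fold change -0.29), while 0 rose, against 23.1% lower and 24.3% higher among all tested genes. The largest decrease was that of trm2, which makes methyluridine in the T loop. It had 25.2 and 25.7 FPKM with rapalink-1 and 36.4 and 35.2 FPKM with rapamycin, against 40.6 and 36.3 FPKM in untreated cells. Rapalink-1 lay below the other 2 conditions, which overlapped, with a log2 fold change of -0.58 ± 0.06 (adjusted p = 0.000147), or 1.51-fold lower. The gene that follows it on the same strand, trm12, did not share this change (-0.01 ± 0.05, adjusted p = 0.899), although the models overlap by 28 bases. Both subunits of the guanine-N7 methylase fell, trm8 by 0.43 and the regulatory subunit SPCC18.13 by 0.34 on the log2 scale. Also lower were trm11 (guanine-N2 methylase, -0.42 ± 0.07), cpd1 (catalytic subunit of the m1A methylase, -0.37 ± 0.05), trm401 (cytosine-5 methylase, -0.32 ± 0.04) and trm1 (-0.29 ± 0.06). Other models cover 40.6% of cpd1. The calls of trm9, rib2 and SPAC2C4.06c were lost when the first untreated library was left out. The second m1A subunit gcd10 had a model 77.4% covered and did not pass the threshold (-0.23 ± 0.15, adjusted p = 0.236).

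Beyond methylation, the largest decrease of any of the 85 genes was that of pus1, a pseudouridine synthase (chromosome III, 2120626 to 2122630, plus strand). It had 41.3 and 45.1 FPKM with rapalink-1 and 56.9 and 59.5 FPKM with rapamycin, against 69.4 and 66.5 FPKM in untreated cells. The conditions did not overlap, and the log2 fold changes were -0.64 ± 0.05 with rapalink-1 (adjusted p = 3.34e-05) and -0.22 ± 0.05 with rapamycin (adjusted p = 0.0271). The rapamycin call was lost when any 1 of the rapamycin or untreated libraries was left out. The second pseudouridine synthase that fell was pus4 (-0.20 ± 0.04, adjusted p = 0.00245).

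In splicing, trl1, which joins the exons of a cut tRNA, had 21.8 and 23.2 FPKM with rapalink-1 and 29.2 and 29.7 FPKM with rapamycin, against 30.5 and 32.4 FPKM in untreated cells (-0.46 ± 0.06, adjusted p = 0.000343). The phosphotransferase tpt1, which removes the phosphate left at the joint, was also lower (-0.29 ± 0.07, adjusted p = 0.0129), a call lost without the first untreated or the first rapalink-1 library. The splicing endonuclease subunits sen34 and sen54 did not pass the threshold against untreated cells with rapalink-1 (adjusted p = 0.162 and 0.274). At the ends of tRNA, trz1, the nuclear endonuclease that cuts off the trailer, fell by 0.35, whereas its mitochondrial counterpart trz2 had a value of -0.04 ± 0.06 (adjusted p = 0.552). The ligase cofactor asc1 had 354 and 358 FPKM with rapalink-1 and 433 and 439 FPKM with rapamycin, against 463 and 438 FPKM in untreated cells. Its decrease with rapalink-1 (-0.34 ± 0.04, adjusted p = 0.000239) stood beside values of -0.24 ± 0.04 for its partner rar1 and -0.26 ± 0.04 for gus1. The initiator tRNA enzyme rit1 fell as well (-0.46 ± 0.11, adjusted p = 0.0092), with 35.8% of its model covered. Its rapalink-1 libraries had 10.5 and 13.7 FPKM, and its value was -0.28 without the first and -0.64 without the second. None of the 4 dihydrouridine synthases passed the threshold against untreated cells in either direction with either inhibitor, and their log2 fold changes with rapalink-1 lay between -0.09 and -0.02.

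**Figure D4:**
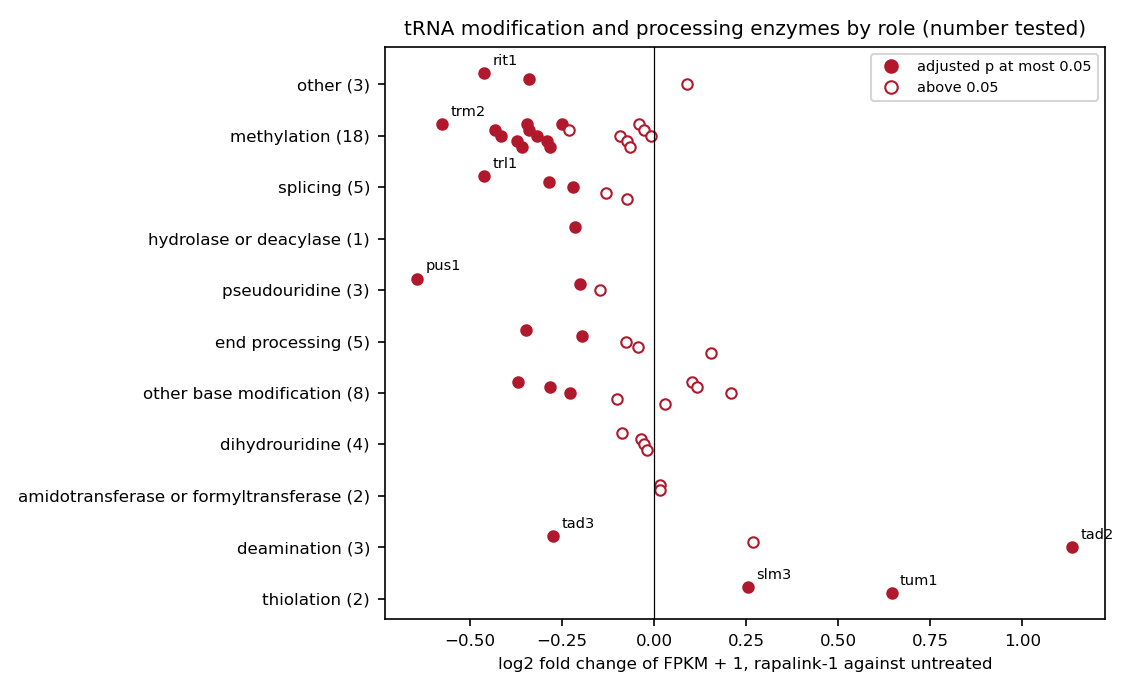
Log2 fold change of FPKM + 1 with rapalink-1 against untreated cells (horizontal axis) for the 54 tested modification and processing enzymes, in rows by role with the number tested, and filled points for an adjusted p of at most 0.05. Most filled points lie left of 0, 11 of them in the methylation row, and tad2, tum1 and slm3 stand to the right.

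Of the 3 enzymes that rose, tad2 changed the most of all 85 genes. It encodes a subunit of the adenosine deaminase that makes inosine at the wobble position of the anticodon (chromosome II, 3618117 to 3619540, plus strand). It had 180 and 151 FPKM with rapalink-1 and 74.6 and 73.5 FPKM with rapamycin, against 74.0 and 75.3 FPKM in untreated cells. The rapalink-1 libraries were far above the 4 others, which were alike, with log2 fold changes of 1.14 ± 0.07 against untreated cells (adjusted p = 5.83e-06) and 1.15 ± 0.07 against rapamycin (adjusted p = 7.69e-06). That is 2.22-fold and 2.24-fold higher. The value was -0.01 ± 0.07 for rapamycin against untreated cells (adjusted p = 0.923).

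The other subunit of that deaminase did not follow. For tad3 the libraries had 61.7 and 59.9 FPKM with rapalink-1 and 65.9 and 63.6 FPKM with rapamycin, against 73.0 and 74.6 FPKM in untreated cells, and the decrease with rapalink-1 was -0.27 ± 0.04 (adjusted p = 0.00103). The tad2 to tad3 ratio was 2.92 and 2.53 with rapalink-1, 1.13 and 1.16 with rapamycin, and 1.01 in both untreated libraries. A non-coding RNA on the other strand, tad2-antisense-1, covers 8.08% of the tad2 model, and its part in the tad2 value was not tested. Another model covers 5.27% of tad3. Beside tad2 on the chromosome, the upstream gene pcn1 had a value of -0.06 (adjusted p = 0.22) and the downstream gene rps1801 fell by 0.34 on the log2 scale (adjusted p = 0.00127). Among the other pairs of subunits, trm7 to SPCC1494.07 (2'-O-methylase) also had a higher ratio in both rapalink-1 libraries, 2.19 and 1.80, against 1.66 in both untreated libraries. The trm8 to SPCC18.13 ratio overlapped between rapalink-1 and untreated libraries.

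The thiosulfate sulfurtransferase tum1, which passes on sulfur for the thiolation of wobble uridine, had 121 and 114 FPKM with rapalink-1 and 85.0 and 77.1 FPKM with rapamycin, against 73.5 and 75.6 FPKM in untreated cells. It lies on chromosome III from 1177720 to 1178984 on the minus strand. The rapalink-1 libraries stood above the rest, at a log2 fold change of 0.64 ± 0.05 (adjusted p = 3.35e-05), and the rapamycin difference did not pass the threshold (0.12 ± 0.05, adjusted p = 0.166). Its 2 neighbours, whose models overlap its own at the edges, were lower with rapalink-1, rhp26 at -0.32 (adjusted p = 0.00131) and SPCC4B3.02c at -0.16 (adjusted p = 0.0218). The mitochondrial thiouridylase slm3 had 52.0 and 52.3 FPKM with rapalink-1 and 51.6 and 52.2 FPKM with rapamycin, against 42.7 and 44.4 FPKM in untreated cells. The libraries of both inhibitors lay above the untreated ones and overlapped each other, with log2 fold changes of 0.25 ± 0.04 for rapalink-1 (adjusted p = 0.00184) and 0.25 ± 0.04 for rapamycin (adjusted p = 0.00849). The difference between the inhibitors was 0.01 ± 0.04 (adjusted p = 0.928).

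**Figure D5:**
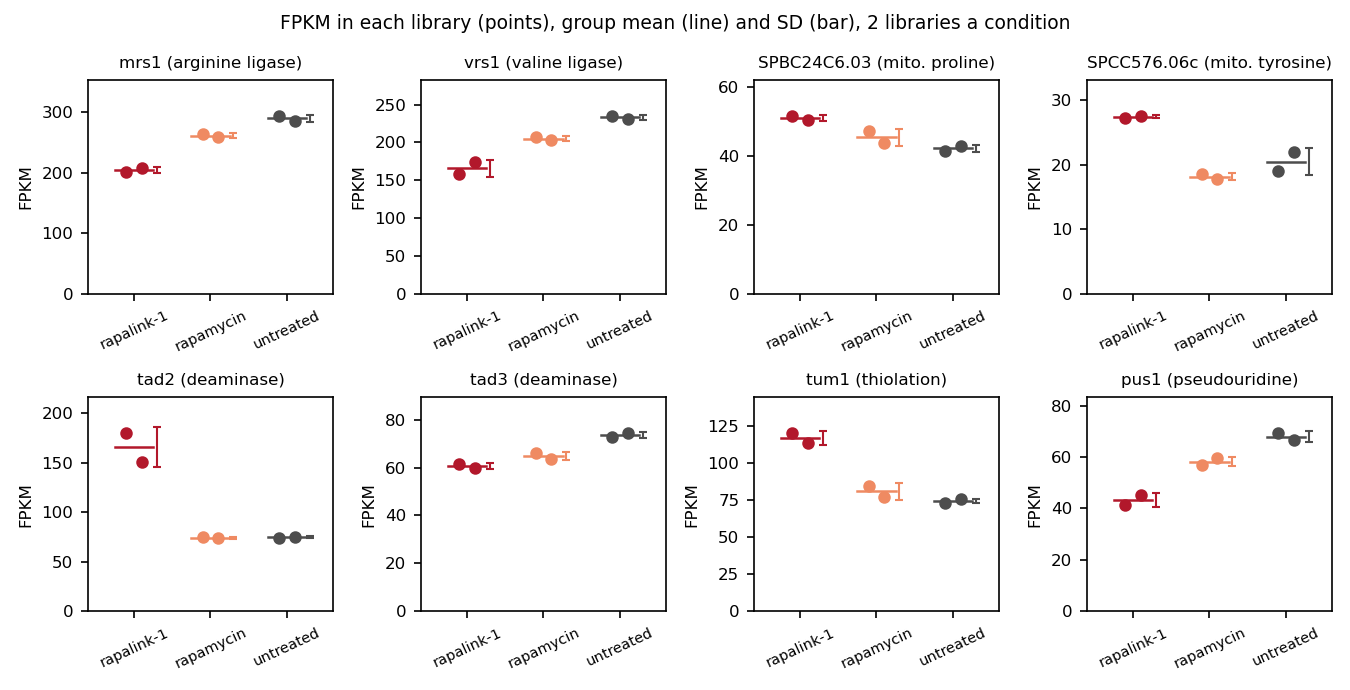
FPKM (vertical axes, from 0) of 8 genes in each library, with the points for the 2 libraries of rapalink-1, rapamycin and untreated cells, a line at the mean and a bar for the SD. The tad2 points of rapalink-1 at 180 and 151 FPKM stand apart from the other 4 at 73.5 to 75.3 FPKM, and mrs1, vrs1 and pus1 step upward through rapamycin to untreated cells.

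Rapamycin raised 4 modification and processing enzymes. Besides slm3 these were trm12 (0.28 ± 0.05, adjusted p = 0.0111), thg1, which adds the extra guanosine of histidine tRNA (0.33 ± 0.09, adjusted p = 0.0308), and the cytosine-5 methylase SPAC2C4.06c. The last had 13.1 and 13.4 FPKM with rapalink-1 and 18.4 and 20.9 FPKM with rapamycin, against 16.4 and 15.5 FPKM in untreated cells. Its rapamycin libraries were above and its rapalink-1 libraries below both untreated ones, with log2 fold changes of -0.25 ± 0.08 for rapalink-1 (adjusted p = 0.0277), 0.28 ± 0.08 for rapamycin (adjusted p = 0.0386) and -0.53 ± 0.08 between the inhibitors (adjusted p = 0.000969). The 4 that rapamycin lowered were trm401 (-0.20 ± 0.04), pus1, tad3 (-0.18 ± 0.04) and the queuine transferase SPAC2F3.13c (-0.22 ± 0.05), whose model is 48.5% covered. Over all 85 genes 4 were higher and 10 lower with rapamycin, where 10.2% of all tested genes were higher and 8% lower. Of these 14 calls 1 was kept under every alternative. In the direct comparison of the inhibitors 4 genes were higher and 35 lower with rapalink-1, where 19.6% of all tested genes were higher and 17.6% lower. Of these 39 calls 21 were kept under every alternative.

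Genes of the same pathways that lack the word in their description were taken from lists of Elongator, thiolation, KEOPS, RNase P, tRNA transport and the sensing of uncharged tRNA. Of 33 genes 25 were tested, and 9 were lower and 4 higher with rapalink-1, where 23.1% and 24.3% of all tested genes were. The strongest were sla1, the La protein that binds newly made tRNA ends, which fell by 0.56 (adjusted p = 0.0002), los1, the tRNA exportin, which fell by 0.40 (adjusted p = 0.000628), and rpp1, a subunit of RNase P, which fell by 0.39 on the log2 scale (adjusted p = 0.00198). The cytosolic thiouridylase ctu1 rose by 0.31 (adjusted p = 0.0388). With rapamycin 3 were lower and 1 was higher, where 8% and 10.2% of all tested genes were. The gene that rose was elp2 of Elongator, by 0.37 (adjusted p = 0.0164). The kinase gcn2, which is activated by uncharged tRNA, did not pass the threshold against untreated cells with rapalink-1 (0.02, adjusted p = 0.797) or rapamycin (0.21, adjusted p = 0.0513).

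The 250 bases before the RefSeq start of each gene (assembly ASM294v3) were searched on both strands for the GATA-type motif GATAAG, the letters TGACTC and the homolD box CAGTCACA. GATAAG, the kind of site that GATA factors such as Gaf1 bind, was found before 521 of 5104 protein-coding genes (10.2%), 7 of the 21 ligases that work in the cytosol (33.3%) and 5 of the 70 modification and processing enzymes (7.14%). It stood before 10 of the 45 genes that were lower with rapalink-1 and before 3 of the 35 without a call. TGACTC, the core of sites bound by Gcn4-type factors in budding yeast, was found before 5.64% of all genes and 6 of the 105 described here, of which tum1 and SPCC576.06c rose, trs1 (with 2 matches) fell, SPAC3C7.07c had no call, and trm112 and SPAC8C9.05 were not tested. The homolD box was found before 2.63% of all genes and before lrs1 and trz2. These are matches of letters only, and no factor binding was measured. The windows below show them for 9 members that were called with rapalink-1, so that the matched letters can be read beside the changes, 5′ to 3′ on the strand of the gene, with the motif or its reverse complement in capitals. The windows of mrs1 and tum1 lie inside these genes' own deposited models, which reach further upstream than RefSeq. Whether a window lies inside the model of another gene is not given here, and ret3 overlaps the upstream end of SPCC576.06c.
mrs1, GATAAG on the opposite strand, chrII:2615232-2615261, minus strand: aactatacacctCTTATCttcactaatttg
gus1, GATAAG on the opposite strand, chrI:1785264-1785293, minus strand: gaacttgaattcCTTATCtataatctaatt
nrs1, GATAAG on the same strand, chrII:303760-303789, minus strand: tgtagatttgcaGATAAGacactctaacga
wrs1, GATAAG on the same strand, chrI:560593-560622, minus strand: gaatttgttggcGATAAGttagtcatcgct
pus1, GATAAG on the opposite strand, chrIII:2120520-2120549, plus strand: tgtaattatactCTTATCttattgaatgaa
trl1, GATAAG on the same strand, chrI:2344093-2344122, minus strand: ccgtttattattGATAAGtagaaataaata
tum1, TGACTC on the same strand, chrIII:1178920-1178949, minus strand: ttaccaaaaactTGACTCgttaattaattt
SPCC576.06c, TGACTC on the opposite strand, chrIII:2093836-2093865, minus strand: ttactgcgtataGAGTCAaattcatgatct
lrs1, homolD on the opposite strand, chrI:5148693-5148722, plus strand: aaatttatacagTGTGACTGctcgaaacta
The GATAAG match lay 134 bases before the RefSeq start of mrs1, 152 before gus1, 54 before nrs1, 64 before wrs1, 83 before pus1 and 122 before trl1. The tested genes with GATAAG that were called lower ran from -0.64 (pus1) to -0.19 (nrs1) on the log2 scale, with wrs1 at -0.21. The genes ala1 (-0.10), sen34 (-0.13) and dar2 (-0.02) hold it as well and had no call. The large decreases of vrs1 and trm2 came without a match in this window.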

How the data were processed

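The labels describe mother cultures of wild-type cells divided into flasks, from which the 6 libraries came, 2 per condition, which the study's methods call biological replicates. Which mother culture a duplicate number stands for is not given, and p-values measure the spread between these libraries. Libraries were made by polyA capture and read as 150 bp paired ends. The submitters' processing notes name HISAT2 2.0.5, StringTie 1.3.3b, featureCounts 1.5.0-p3 and DESeq2 without their roles. The study's methods give DESeq2 as the tool of its own comparisons, and the genome build and strand setting are not given in the sources used here.

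The authors deposited FPKM of all 7268 gene models in 1 table, together with gene positions and descriptions, and for each of the 3 comparisons a table of listed genes only, with read counts, fold changes and p-values. The authors' fold changes and p-values were not used. The same tables hold a signal made by the authors, read counts divided by a size factor per library of that comparison, which was not tested. Reads were recovered from the deposited FPKM with 1 constant per library. They came out whole for 100% of values (tolerance 1e-06) and equalled the deposited counts of all 2505 (untreated), 2398 (rapamycin) and 2543 (rapalink-1) listed genes. The reads of a tested gene in a library ranged from 57 to 24926. The constants are proportional to median-of-ratios size factors.

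FPKM were scaled again by median-of-ratios factors (no change), 1 was added and log2 taken. Gene models with a mean of at least 1 FPKM (4847) entered 1 limma 3.58.1 fit (R 4.3.3) with a mean per condition, all 6 libraries and an intensity trend, and p-values were adjusted (Benjamini-Hochberg) across all tested genes, separately for each comparison. Adjusted p-values in the text come from limma. An exact permutation test of 2 against 2 libraries cannot go below p = 0.333. The scripts were tested on simulated data. Members, lists and tests were chosen with earlier results of these data known, and the pathway lists are not independent evidence. Named genes were, for each comparison and for ligases and other enzymes separately, up to 6 higher and 6 lower past the threshold with a mean of at least 5 FPKM and no overlap between groups, the 3 highest and 3 lowest levels, ligase pairs and untested members. Of the other genes named, ala1, trm1, tpt1, trz1, trz2, cpd1, SPCC18.13, gcd10, sen15, sen34, sen54, trm7, SPCC1494.07, trm9, rib2 and the neighbours were chosen after their values were seen. From the pathway lists 6 genes whose descriptions did not belong were dropped.

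Alternatives were a pseudocount of 0.1, no filter, a mean of at least 10 FPKM, no further scaling, quantiles made equal, a fit of just the 2 conditions compared, the replicate number as a block, no trend, the protein-coding subset, count tests on recovered reads with edgeR 4.0.16 and with DESeq2 1.42.0, each library left out, and, added after seeing the data, only models less than 10% covered. Sequences come from RefSeq assembly ASM294v3, in which all 105 members were found and 104 share a start or end with the deposited models.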

Additional observations from a re-analysis of the deposited data

Results flagged for a closer look

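The methylase gene SPAC2C4.06c was called lower with rapalink-1 and higher with rapamycin against the same untreated libraries, and the inhibitors differed from each other by -0.53 on the log2 scale (rapalink-1 against rapamycin, adjusted p = 0.000969 from limma, at most 0.00943 under every alternative). The 2 calls against untreated cells were less stable, with adjusted p up to 0.13 (rapalink-1) and 0.22 (rapamycin) over the alternatives. The gene has 374 to 971 reads per library.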

How the results depend on the processing

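Of the 50 genes called with rapalink-1 against untreated cells, 44 kept their call and direction under every alternative, as did 21 of 39 between the inhibitors and 1 of 14 with rapamycin, and 0 named genes reversed. Rapalink-1 against untreated cells gave 39 to 44 lower and 5 to 6 higher when a library was left out. Among models less than 10% covered, of which 56 are members, 2 were higher and 39 lower, since 3 of the 5 genes that rose have more overlap, and against rapamycin 2 were higher. With rapamycin the 4 higher and 10 lower became 2 and 6 without a filter and 1 and 1 without the trend, and ranged over 0 to 4 and 1 to 13 when a library was left out. Between the inhibitors the counts ranged over 3 to 4 and 22 to 35. Counts with edgeR were 5 and 45, 4 and 10, and 4 and 38, and with DESeq2 5 and 44, 3 and 7, and 3 and 33. Quantile normalization gave 50 lower with rapalink-1. With the replicate block 5 were higher and 45 lower with rapalink-1, 6 and 9 with rapamycin, and 4 and 37 between the inhibitors. The share of all tested genes called under each alternative is not given here, so these counts are not set against one. Same-numbered libraries correlated by -0.01 to 0.04 in their deviations from the group means, so no shared deviation was seen. This cannot tell whether same-numbered libraries came from the same mother culture.

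Precision is limited by 2 libraries a condition rather than by depth for genes with little overlap, and the 20 genes that were not tested could not be read. Another 4 tested genes have over 80% of their model covered. With rapalink-1 the median of the cytosolic ligases was -0.35 after quantile normalization. That of the mitochondrial ligases was -0.01 without a filter and -0.14 with quantile normalization, and that of the other enzymes -0.08 and -0.22. The cause of these shifts was not tested.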

Other observations

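The level of mitochondrial ligases relative to each other could be set side by side for 4 genes only, and those were, over the 6 libraries, SPBC24C6.03 (proline) at 46.3 FPKM, mse1 (glutamate) at 33.2, msm1 (methionine) at 30.8 and ism1 (isoleucine) at 23.0 FPKM. With rapalink-1 the first rose, the second fell, and msm1 (0.10 ± 0.05, adjusted p = 0.169 from limma) and ism1 (-0.14 ± 0.06, adjusted p = 0.0959) did not pass the threshold. Members lay on all 3 chromosomes, with 23 of 40 tested members lower on chromosome I, 13 of 25 on II and 9 of 20 on III with rapalink-1, against 23.1% of all tested genes.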
